A study of Rattus norvegicus with 2 samples.

Results

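Dietary protein enters the enterocyte as short peptides and as free amino acids, and each uses its own carriers in the brush border. The proton-coupled transporter Slc15a1 (PEPT1) takes up di- and tripeptides. Free amino acids cross by sodium-coupled carriers, such as the acidic amino acid transporter Slc1a1 and the taurine transporter Slc6a6, and by exchangers built of a heavy and a light chain. The heavy chain Slc3a1 (rBAT) carries the light chain Slc7a9 to the brush border for uptake of cystine and cationic amino acids. The heavy chain Slc3a2 (4F2hc) pairs with light chains such as Slc7a5, Slc7a7 and Slc7a8, with Slc7a7 and Slc7a8 serving release at the basolateral membrane. Slc7a1 (CAT-1) carries cationic amino acids without a heavy chain.

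These amino acid and peptide transporters were described in the duodenum of 1 control and 1 immobilized rat. All probe sets annotated to 9 named genes were taken, and 6 of the 9 genes had at least 1, giving 12 of the 8799 probe sets and 6 of the 4736 genes with a single symbol. The light chain genes Slc7a7, Slc7a8 and Slc7a9 had no probe set under these symbols in the annotation used and were not analysed here. Both animals were male Wistar rats of 15 weeks. The control spent 2 weeks in a metabolic cage while the other was held in an immobilization cage over the same time. RNA of the duodenal mucosa, which the labels also call epithelial cells, was hybridised to 1 rat U34A oligonucleotide array (Affymetrix) for each animal. The sources used here do not speak of pooled animals.

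Each condition has 1 array. The spread between animals is therefore unknown, no p-value is given, and precision is limited by this number of arrays. Signals are in array units, with those of the immobilized rat multiplied by 1.016 to bring the median log2 ratio of probe sets to 0. Log2 ratios are immobilized over control and were taken only where both signals exceeded a floor of 39.9, the median of all signals, which left 2524 genes. Where 1 gene had several probe sets (696 genes), their log2 ratios spread with an SD of 0.31, called the technical SD here. It was pooled over all signals above the floor, and holds array error and differences between probe sets. It does not hold the spread between rats or error shared by all probe sets of a gene. A list of 16 villus enterocyte markers was read beside the transporters. A probe set was listed for 11 of them, and these 11 lay above the floor on both arrays. Among them were Alpi, Fabp1, Fabp2, Apoa1, Apoa4 and Lct, whereas Vil1 and Sis were not analysed here. All 15 measured exocrine pancreas markers were above the floor on both arrays as well. Passing the floor therefore does not tell which cells were sampled.

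The upstream sequences below are those of the 2 bright transporters with lower signals in the immobilized rat (Slc3a1 and Slc15a1) and of those without a shift that their probe sets shared (Slc3a2, with both of its listed starts, and Slc7a1). Each is the 100 bases before a gene start listed by RefSeq (build GRCr8), and 8 of the 9 genes matched an entry; Slc1a1 is the other gene. Capitals mark matches, on either strand, to the TATA box core TATAAA, to TGATGNAA, the core of the C/EBP-ATF element through which amino acid shortage acts on genes, and to the Sp1 box core GGGCGG.
Slc3a1, chr6:15394750-15394849, minus strand: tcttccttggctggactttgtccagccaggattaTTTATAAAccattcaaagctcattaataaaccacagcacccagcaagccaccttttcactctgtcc
Slc15a1, chr15:104949345-104949444, minus strand: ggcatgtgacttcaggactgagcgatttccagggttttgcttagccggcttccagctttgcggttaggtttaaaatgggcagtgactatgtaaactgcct
Slc3a2 outer start, chr1:215048065-215048164, minus strand: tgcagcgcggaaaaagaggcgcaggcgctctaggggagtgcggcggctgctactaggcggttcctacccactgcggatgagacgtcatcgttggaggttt
Slc3a2 inner start, chr1:215039671-215039770, minus strand: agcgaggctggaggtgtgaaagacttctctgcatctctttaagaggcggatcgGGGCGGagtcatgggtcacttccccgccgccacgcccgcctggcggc
Slc7a1, chr12:11664388-11664487, plus strand: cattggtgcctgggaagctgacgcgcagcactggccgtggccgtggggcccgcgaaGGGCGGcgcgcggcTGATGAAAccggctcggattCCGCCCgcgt
The windows of Slc3a1, of Slc15a1 and of the inner start of Slc3a2 lie within the span RefSeq gives the gene, so other transcripts of these genes begin farther upstream. The TATAAA match of Slc3a1 began 64 bases before the start and overlapped a second match on the other strand. Such a match was present in 5.78% of the 33469 upstream windows of this length. The TGATGNAA match of Slc7a1, TGATGAAA, began 30 bases before its start, and 1.35% of windows held one. GGGCGG matched on both strands of the Slc7a1 window and at the inner start of Slc3a2, against 21.6% of windows. The windows of Slc15a1 and of the outer Slc3a2 start held none of these letters. Of the windows not printed, that of Slc6a6 held TATAAA 79 bases before the start and that of Slc7a8 held GGGCGG, so the TATA core was not limited to Slc3a1. A match describes the sequence only.

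By the brightest probe set of each gene, no transporter differed by as much as 1.5-fold between the rats. Only Slc3a2 and Slc6a6 were level at each of their probe sets, and those of Slc7a1 disagreed. The log2 ratio farthest from 0 among the 6 genes was that of the brush border heavy chain Slc3a1, with a lower signal in the immobilized rat. The peptide transporter Slc15a1 had lower signals at both probe sets, by little at the brighter of them, and the weak signal of Slc1a1 was higher at 1 probe set. The heavy chain Slc3a2 and the taurine transporter Slc6a6 stayed within 1.04-fold. None of the 6 genes was at least 2-fold lower, against 0.674% of the 2524 genes above the floor, and none at least 2-fold higher, against 2.02%. At 1.5-fold the count was also 0 of 6 in either direction, where 4.87% of genes were lower and 8.36% higher, so a count of 0 among so few genes is close to the background.

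Slc3a1 had a signal of 2046 in the control rat and 1460 in the immobilized rat. It was thus 1.40-fold lower (log2 ratio -0.49), which is 1.57 times the technical SD, and 7.88% of all genes above the floor were as low or lower. Bright genes as a whole leaned the same way: the median log2 ratio of the 372 genes above 1000 on both arrays was -0.08, and 65.3% of them were below 0. Relative to that median Slc3a1 was lower by a log2 difference of -0.41, or 1.31 times the technical SD. Slc3a1 has a single probe set (M80804_s_at), so its value has no second measurement on these arrays.

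The other heavy chain, Slc3a2, was measured by a pair of probe sets that gave nearly the same answer. AB015433_s_at read 2401 in the control and 2458 in the immobilized rat, a log2 ratio of 0.03. X89225cds_s_at read 1927 and 1951, a log2 ratio of 0.02. Both probe sets of Slc3a2 were thus close to 0, and slightly above the median of -0.08 of the bright genes. The log2 ratio of Slc3a2 exceeded that of Slc3a1 by 0.52, which is 1.19 times the SD of 0.44 for a difference between a pair of probe sets. A gap of that size between the heavy chains is close to the spread between probe sets of 1 gene, pooled over bright and dim signals. Slc7a5 (LAT1), a light chain partner of Slc3a2, was at 108.5 and 110.2 (log2 ratio 0.02).

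Slc15a1 was lower in the immobilized rat at both of its probe sets, by different amounts. D50664_at, the brighter, read 1771 in the control and 1638 in the immobilized rat, 1.08-fold lower (log2 ratio -0.11). L46873_s_at read 1232 and 903, 1.36-fold lower (log2 ratio -0.45). The first value is close to the median of -0.08 of the bright genes, and 37.9% of all genes above the floor were as low or lower. The first value is 0.36 and the second 1.44 times the technical SD, and they differ by 0.33, less than the SD of 0.44 for such a difference. The direction was shared while the size was not settled, with a mean log2 ratio of -0.28 over both.

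**Figure D1:**
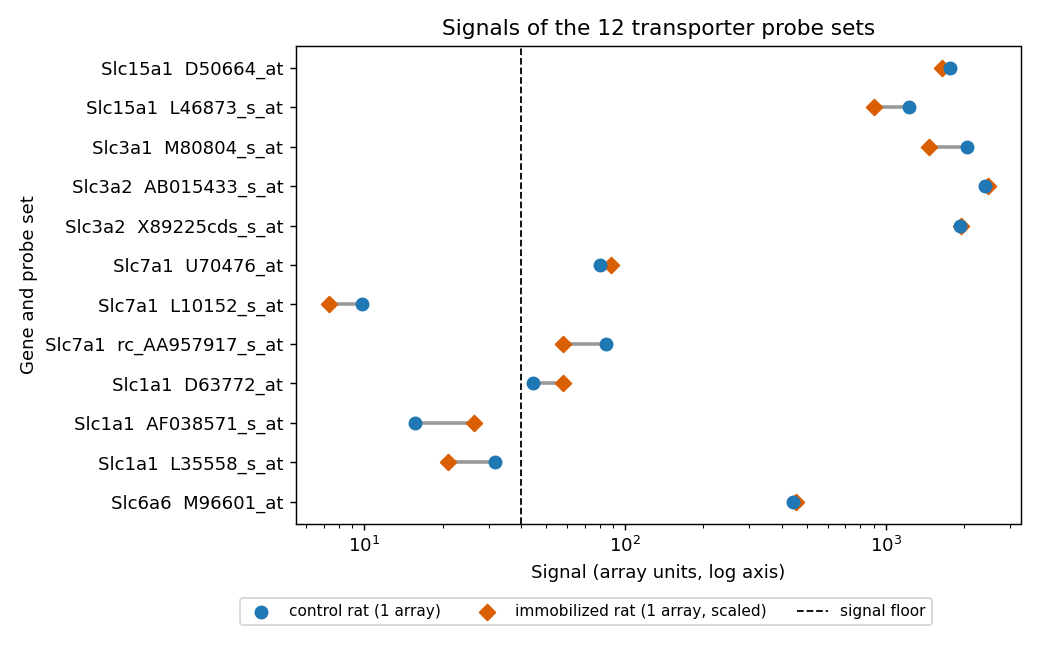
Signal of each of the 12 probe sets of the 6 transporter genes (rows) on the control array (circles) and the scaled immobilized array (diamonds), in array units on a log axis; the dashed line is the floor of 39.9, and there is 1 array per animal. The marks nearly coincide for Slc3a2 and Slc6a6. Above the floor they separate for Slc3a1 (2046 to 1460) and for 1 probe set each of Slc7a1 (84.9 to 57.6), Slc15a1 (1232 to 903) and Slc1a1 (44.4 to 57.7). A further 3 probe sets of Slc7a1 and Slc1a1 lie below the floor on both arrays.

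The sodium-coupled taurine transporter Slc6a6 had 1 probe set, with a signal of 439 in the control and 455 in the immobilized rat (log2 ratio 0.05). This is 0.16 times the technical SD, and the gene was level between the arrays.

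Slc7a1 and Slc1a1 gave weak signals, and their ratios are limited by signal over background. The Slc7a1 probe set U70476_at read 80.5 in the control and 88.3 in the immobilized rat (log2 ratio 0.13). A second, rc_AA957917_s_at, read 84.9 and 57.6 (log2 ratio -0.56), and the third, L10152_s_at, was under the floor on both arrays at 9.8 and 7.3. The probe sets of Slc7a1 above the floor disagreed in direction by 0.69, or 1.58 times the SD of such a difference, so no direction is given for this gene.

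For Slc1a1 (EAAC1), D63772_at read 44.4 and 57.7 (log2 ratio 0.38, 1.22 times the technical SD), just above the floor of 39.9. The other probe sets of Slc1a1 were under the floor on both arrays and pointed in opposite ways, with 15.7 and 26.4 for AF038571_s_at and 31.6 and 20.9 for L35558_s_at. A higher signal of Slc1a1 thus rests on 1 of 3 probe sets near background.

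As a group, by the brightest probe set, 2 of the 6 genes had a log2 ratio below 0 (50.6% of all genes above the floor) and 4 above it. Of these 4, Slc3a2 and Slc6a6 were level, Slc1a1 was near background and the probe sets of Slc7a1 disagreed in direction. Their median was 0.04, against -0.01 over all genes. Counted by probe set, 4 of the 9 above the floor were below 0 and their median was 0.02.

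**Figure D2:**
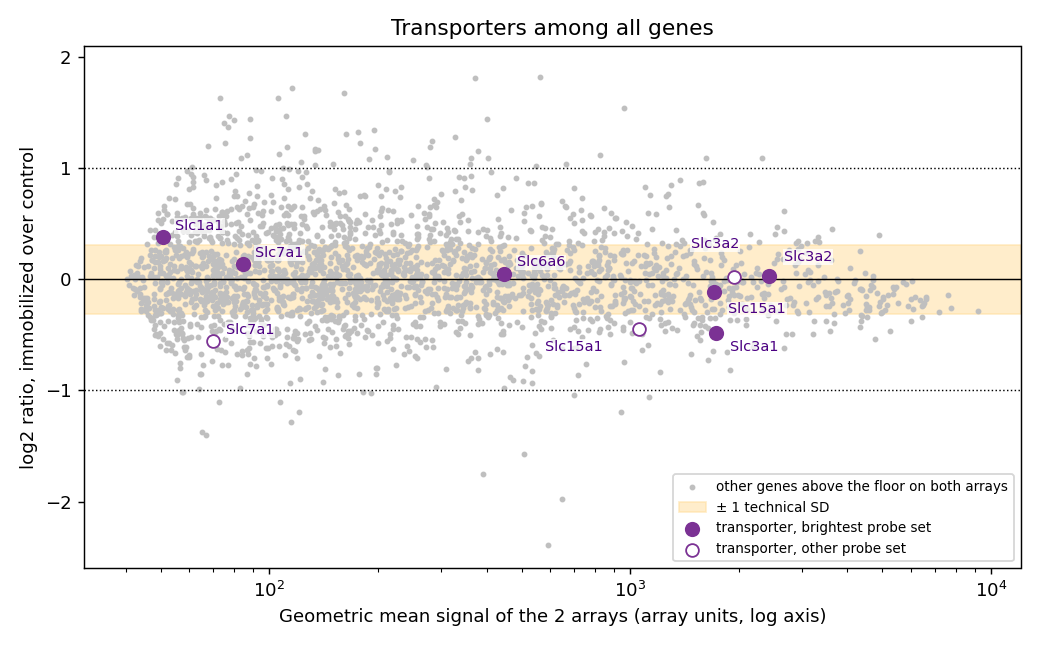
Log2 ratio of immobilized over control against the geometric mean signal of the 2 arrays (log axis) for the 2524 genes above the floor (grey) and the transporters (purple; filled for the probe set that stands for the gene, open for other probe sets). The band is ± 1 technical SD (0.31) and the dotted lines mark 2-fold; each transporter lies between the dotted lines, with Slc3a1 at -0.49 and the weaker Slc7a1 probe set at -0.56 farthest below 0.

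Other carriers of amino acids and peptides on the array were mostly dim in this tissue. The list held 50 genes, and 19 had a probe set. Both signals exceeded the floor for 5 genes, 1 signal for 2 and neither for 12. Of the 5, none was at least 1.5-fold higher or lower and the median log2 ratio was 0.02. The glycine transporter Slc6a9 read 266 in the control and 195 in the immobilized rat, a log2 ratio of -0.44. The creatine transporter Slc6a8 went the other way, from 1098 to 1264 (log2 ratio 0.20). Slc15a4, a peptide and histidine transporter, had 0.27 with signals of 47.1 and 56.7. The GABA transporter Slc6a11 had -0.01, and Slc7a5 is given above. The glutamate transporter Slc1a2 (45.8 in the control) and the glycine transporter Slc6a5 (42.5 in the control) were just above the floor in the control rat only. Among the 12 under it on both arrays were Slc7a2 and Slc7a3, cationic amino acid carriers of the same family as Slc7a1, and the peptide transporter Slc15a2.

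Genes that work beside the transporters mostly had lower signals in the immobilized rat. The ion gradient list holds sodium pump subunits, sodium-proton exchangers and brush border scaffolds, which maintain the gradients or hold carriers in place. Of its 6 genes above the floor 5 were below 0, 2 of them at least 1.5-fold lower, with a median log2 ratio of -0.29. Over all genes these shares were 50.6% and 4.87%. The scaffold gene Pdzk1 read 650 in the control and 346 in the immobilized rat (log2 ratio -0.91), and the exchanger Slc9a2 had -0.69. The exchanger Slc9a3 (NHE3), whose proton export supports peptide uptake by Slc15a1, was level at 478 and 467 (log2 ratio -0.03). The membrane linker Ezr had -0.29, like the sodium pump subunit Atp1b1, whose other probe sets had -0.46 and -0.36.

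Among peptidases, which supply the peptides and amino acids, 14 of 15 genes above the floor were below 0, 2 of them at least 2-fold lower, with a median of -0.18. That median is smaller in size than the technical SD of 0.31, and several of these genes were near 0. Over all genes 50.6% were below 0 and 0.674% at least 2-fold lower, and among the bright genes 65.3% were below 0. Ggt1, a gamma-glutamyl transferase, had -1.20, and the aminopeptidase Enpep and the metalloprotease Mep1b had -0.80 and -0.49. The intracellular Tpp2 had -1.02, but 0.34 at another probe set. The aminopeptidase Anpep depended on the probe set, with -0.01 at the brightest and -0.74 and -0.51 at the others. So did Mme, with -0.22 at the brightest and -1.25 at another, and Dpep1, with -0.08 and 0.15.

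Genes of the response to amino acid shortage and related stresses, which also acts on Slc7a1 and Slc3a2, did not move one way. Of 9 above the floor 6 were below 0 and 3 above, with a median log2 ratio of -0.19. Over all genes 50.6% were below 0. The transcription factor genes Atf3 (-0.86), Cebpg (-0.68) and Ddit3 (-0.48) were lower in signal and Cebpb (0.70) higher. The sign depended on the probe set for Trib3 (0.15 at the brightest, -0.44 at another) and Vegfa (-0.19 at the brightest, 0.68 at another). Asns, the asparagine synthetase gene, was under the floor on both arrays.

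Markers of other cells differed between the samples. Counts and medians are over genes above the floor on both arrays, and summed signals over all genes of a list with a probe set. Over all genes above the floor 50.6% were below 0. Among the bright genes 65.3% were below 0, with a median of -0.08, and all measured villus markers but Treh were above 1000 on both arrays. Villus enterocyte markers were below 0 for 9 of 11 genes, with a median of -0.21 and a summed signal of 57313 in the control and 50063 in the immobilized rat. Slc5a1 (-0.43, and -0.31 at another probe set) and S100g (-0.34, and -0.99 at another probe set) were lower in signal. Treh (0.59) and Lct (0.41, but 0.00 at another probe set) were higher. Crypt and dividing cell markers were above 0 for 7 of 7 (median 0.47, summed signal 1528 and 2086). Exocrine pancreas markers were above 0 for 14 of 15 (median 0.76, summed signal 7267 and 13590). Smooth muscle markers were above 0 for 3 of 5 (median 0.51, summed signal 457 and 753). Their largest rise was that of Acta2 (90.3 and 289). Probe sets disagreed for Acta2 (1.68 at the brightest, -0.13 at another) and Myl9 (-0.02 at the brightest, 0.79 at another). Immune markers were above 0 for 3 of 4 (median 0.40, but 0.06 with every probe set counted, summed signal 3436 and 4288). Goblet, Paneth and enteroendocrine markers were below 0 for 7 of 9 (median -0.28, summed signal 14688 and 11134). The members of that last list did not move together. Reg3b (1356 in the control and 258 in the immobilized rat, log2 ratio -2.39) and Reg3g (1284.5 and 326, -1.98) were lower in signal, and Pla2g2a (63.4 and 210, 1.72) was higher. No marker with a probe set had a signal of 0. The part of these markers in the transporter values was not tested, and in whole mucosa fewer cells of a type and less RNA per cell cannot be told apart.

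**Figure D3:**
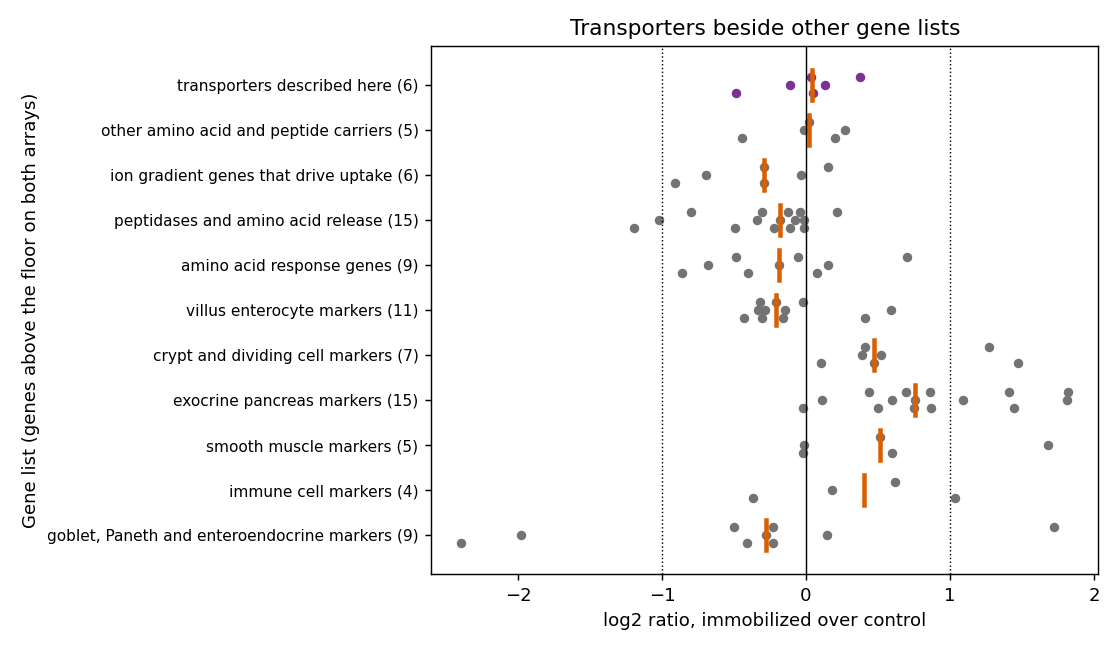
Log2 ratio of immobilized over control for each gene above the floor on both arrays (points), by gene list, with the number of genes in parentheses and the list median as a bar; dotted lines mark 2-fold. The transporters sit around 0 (median 0.04), villus enterocyte markers mostly below it (median -0.21) and exocrine pancreas markers mostly above it (median 0.76). The lists differ in signal range. All measured villus markers but Treh exceeded 1000 on both arrays, where the median over genes was -0.08, whereas Slc1a1 and Slc7a1 were dim. With probe sets averaged the transporter median was -0.09.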

How the data were processed

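The deposited table gives 1 linear signal intensity for each probe set and array. Signals came from the array maker's software (version 4.0) per the series' design text, but the submitters' processing notes name MAS5, so the algorithm is not settled. Equal trimmed means (216.0 and 215.9, 2% cut at each end) show that the authors scaled the arrays. Detection calls were not used.

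Symbols came from GEO's platform annotation and were updated through the gene ID. A total of 7006 probe sets had 1 symbol, 308 several, 1426 none and 59 were array controls; those with several held 0 of the transporters. The brightest probe set (by mean signal) stood for its gene. After scaling, the floor was the 50th percentile of all signals. No test was possible, so genes past 2-fold were counted. The members, lists and rules were chosen with earlier results of these data known. Named were all member probe sets and other carriers above the floor on an array. Up to 4 genes farthest from 0 were named per other list of function. Of the marker lists only villus genes, Acta2, Myl9, Reg3b, Reg3g and Pla2g2a are named. Anpep, Mme, Dpep1, Trib3, Vegfa, Slc9a3, Asns, Slc7a2, Slc7a3, Slc15a2, Acta2, Myl9, Reg3b, Reg3g and Pla2g2a were named after their values were seen. The counting was tested on simulated data. Tools were Python 3.11.15 with matplotlib 3.10.9, statsmodels 0.14.6, scipy 1.17.1, pandas 2.3.3 and numpy 2.4.6.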

Additional observations from a re-analysis of the deposited data

How the results depend on the processing

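No transporter gene reached 2-fold under any of the alternatives: floors at the 30th and 70th percentiles, loess with a span of 0.3, quantile normalization, deposited signals, scaling by trimmed means, 50 signal units added before log2, the mean over probe sets, every probe set counted, thresholds of 1.5-fold and 3-fold, and bounds counted. Some of these could not change the count. A 3-fold threshold calls no gene that fails 2-fold, and no transporter gene had a bound. The floor at the 30th percentile left the ratio of each transporter gene unchanged. The median log2 ratio of the transporter genes ranged from -0.09 (mean over probe sets) to 0.07 (loess). The number of genes below 0 was 2 or 3, and with every probe set counted it was 4 of 9. Slc3a1 ranged from -0.51 to -0.46 and Slc15a1 from -0.28 to -0.09, below 0 in each of 9 settings, the main one included. Several of these could not differ. Slc3a1 has a single bright probe set, so both floors and the mean over probe sets left its value unchanged. Deposited signals and trimmed mean scaling gave nearly the same values. Slc3a2 turned to -0.01 after quantile normalization and Slc7a1 to -0.21 with its probe sets averaged. Slc6a6 ranged from 0.03 to 0.06, and Slc1a1 from 0.19 (50 units added) to 0.38. Slc1a1 and Slc7a1 had no value with the floor at the 70th percentile. Of the list medians, that of amino acid response genes turned to 0.05 with that floor (2 genes left) and that of other carriers ranged from -0.12 to 0.02. The median of immune markers ranged from 0.06 (every probe set counted) to 0.61, that of villus markers from -0.29 to -0.09 (quantile normalization), that of ion gradient genes from -0.33 to -0.17 and that of peptidases from -0.34 to -0.12. Smooth muscle markers had no gene above that floor. Signal over background limits Slc1a1 and Slc7a1. No paired analysis was possible because each condition has 1 array and no test was made.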
